A study of Sinohyriopsis cumingii with 2 samples.

Results

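Exosomes are small vesicles that cells release and that carry RNA between cells. In the freshwater pearl mussel Hyriopsis cumingii (labelled Sinohyriopsis cumingii), small RNAs were sequenced from exosomes of the mantle, the tissue that secretes shell and nacre, in a study of nacre colour. Described here are 4 short sequences that the deposited table lists under the miRNA names hsa-miR-1246, cgr-miR-1260, hsa-miR-4532 and hsa-miR-4516. They were found by name, as all entries of the families miR-1246, miR-1260, miR-4532 and miR-4516, joined where the mature sequence was the same. This gave 6 of the 1404 deposited entries and 4 of the 170 distinct sequences. The samples were a white and a purple type of healthy mussel, both aged about 2 years, with shells of 9 cm on average and no treatment given. With 1 library for each type there is no replicate check of any difference and no p-value, and the libraries rather than the types are compared. The number of animals per library was not stated in the labels used. The table holds miRNA names only, so the labelled tissue could not be checked against marker genes.

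A miRNA is a short RNA cut from a hairpin precursor, and its bases 2 to 8, the seed, pair with target messages. Public miRNA catalogues also hold entries whose sequence matches a stretch of a longer structural RNA. The sequence of miR-1246 occurs within vertebrate U2 small nuclear RNA, a part of the spliceosome. That of miR-1260 matches the tail of a vertebrate leucine transfer RNA, including the CCA that cells add to the end of every mature transfer RNA. These matches are background knowledge. No U2, transfer RNA or ribosomal RNA sequence and no mussel genome was used here, so the origin of none of the 4 was examined, and the source RNA of hsa-miR-4532 and hsa-miR-4516 is not named. No role of the 4 in molluscs is given here.

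The sequences are printed because their length and base content set them apart from most of the table. They are the mature sequences as deposited, 5′ to 3′, with the seed in capitals.
hsa-miR-1246: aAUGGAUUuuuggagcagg
cgr-miR-1260: aUCCCACCgcugccacca
hsa-miR-4532: cCCCGGGGagcccggcg
hsa-miR-4516: gGGAGAAGggucggggc

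All 4 were short. The listed sequences ran from 17 to 26 nt with a median of 22 nt. The only 2 of 17 nt were hsa-miR-4532 and hsa-miR-4516. The 18-nt cgr-miR-1260 shared its length with 1 other listed sequence, hsa-miR-1268a, and the 19-nt hsa-miR-1246 was shorter than 163 of the 170. Of the 7 sequences of 17 to 19 nt, 4 were thus from these families.

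In base content the 4 did not form one kind. The seed of hsa-miR-4532 and the rest of its sequence are almost only C and G, and its 94.1% of G and C bases was the highest of all 170, where the median was 42.9%. The purine-rich hsa-miR-4516 had 76.5%, with G alone making up 64.7% of its bases, a share that 1 listed sequence exceeded. The C-rich cgr-miR-1260 had 66.7% G and C and, at 55.6%, the largest share of C in the table. By contrast hsa-miR-1246, with a run of U after its seed, had 42.1%, close to the median. Of the 170 sequences 2 end in CCA, cgr-miR-1260 and hsa-miR-223-3p.

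**Figure D1:**
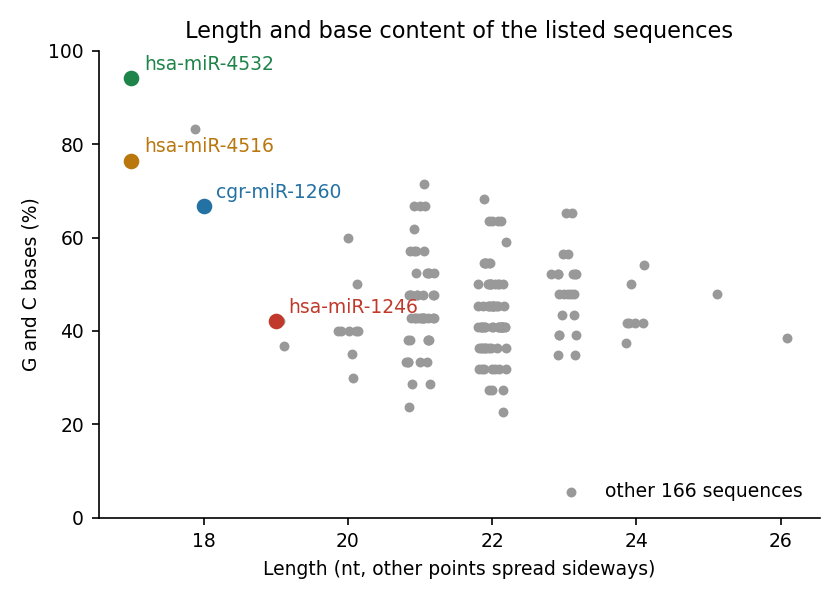
Each point is 1 of the 170 listed sequences, with its length in nt on the x axis and its percentage of G and C bases on the y axis; coloured points are the 4 sequences and grey points, spread sideways for visibility, the other 166. The coloured points lie at the short end, and 3 of them have at least 66.7% G and C, while hsa-miR-1246 lies at 42.1%.

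The plot of length against base content shows these positions. No seed of the 4 was shared with another listed sequence, and none was shared among them. The longest stretch in common with any other listed sequence was 8 nt for hsa-miR-1246, 7 nt for cgr-miR-1260 and hsa-miR-4516, and 6 nt for hsa-miR-4532. The median over all 170 was 21 nt, because most entries are length forms or close relatives of another entry. The 4 also had few names. The sequence hsa-miR-1246 was deposited for human, chimpanzee and cow, cgr-miR-1260 for the Chinese hamster alone, and hsa-miR-4532 and hsa-miR-4516 for human alone. No entry of the 4 carries the prefix of a mollusc or of any other invertebrate. The median listed sequence had 5 entries from 4 species, and 53 of the 170 had a single species prefix.

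Levels are given in tags, the counts of sequenced small RNAs, and as a share of all tags on listed sequences, each sequence counted once. The white library held 1820 such tags and the purple library 3141, so that 1 tag was worth 549 CPM in white and 318 CPM in purple. Intervals are exact 95% ones. They cover counting error only and, with 1 library for each type, leave out differences among mussels and exosome preparations. PCR copies were not told apart from independent molecules, so the intervals may be too narrow even for counting error. They were worked out from the tags as rounded to whole numbers. A cell left empty in the table stands for under 2 tags.

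The U2-like sequence hsa-miR-1246 had 8 tags in white and 302 tags in purple. The counting intervals of these values were 3.45 to 15.8 tags and 269 to 338 tags, and they did not overlap. In a bulk exosome library, more vesicles with a sequence and more copies in each vesicle cannot be told apart. Its share of listed tags was 0.440% in white (interval 0.190 to 0.864), against 9.61% in purple (8.61 to 10.7). In white the sequence stood at rank 31 of 136 listed sequences, tied with 6 others at 8 tags, next to cfa-miR-191 with 9 tags. In purple it was the third of 159, between hsa-miR-151a-3p with 378 tags and hsa-miR-148a-3p with 271.

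The transfer RNA-like cgr-miR-1260 had 39 tags in white and 103 in purple. Its share was 2.14% in white (1.53 to 2.92) and 3.28% in purple (2.68 to 3.96), and these intervals overlapped. It was abundant in both libraries, at rank 8 in white between bta-miR-451 at 45 tags and hsa-let-7g-5p at 35, and at rank 7 in purple between chi-miR-21-5p at 137 and hsa-let-7g-5p at 65.

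The remaining 2 sequences were low. The GC-rich hsa-miR-4532 had 3 tags in white and 14 in purple, or 0.165% (0.0340 to 0.481) and 0.446% (0.244 to 0.747), and the share intervals overlapped. It stood at rank 80 in white and 33 in purple. The purine-rich hsa-miR-4516 had 7 tags in white, or 0.385% (0.155 to 0.791), and was empty in purple. It was the only one of the 4 missing from a library. Of the 11 sequences listed in white alone, the other 10 had at most 3 tags.

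**Figure D2:**
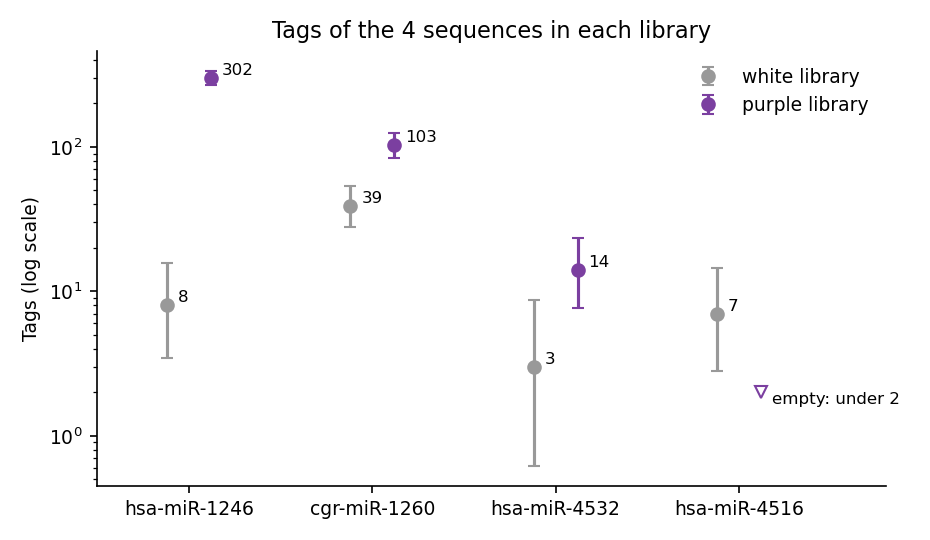
Tags of the 4 sequences on a log axis, 1 point per library, with 95% exact Poisson intervals for counting error as bars; the open triangle is the empty purple cell of hsa-miR-4516, drawn at 2 tags. The intervals of the libraries are far apart for hsa-miR-1246 (8 and 302 tags).

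The order of the 4 differed between the libraries. In white it was cgr-miR-1260, hsa-miR-1246, hsa-miR-4516 and hsa-miR-4532, and the counting intervals of the last 3, at 8, 7 and 3 tags, overlapped. In purple it was hsa-miR-1246, cgr-miR-1260 and hsa-miR-4532, with no overlap between the intervals of neighbours. Their sum in white was 57 tags, a share of 3.13% (2.38 to 4.04), and their sum in purple 419 tags, a share of 13.3% (12.2 to 14.6). Most of the white tags of this group, 68.4%, were cgr-miR-1260, whereas 72.1% of the purple ones were hsa-miR-1246. Without hsa-miR-1246 the other 3 held 49 and 117 tags, or 2.69% (2.00 to 3.54) and 3.72% (3.09 to 4.45). For comparison, the let-7 family held 16.2% of white and 12.9% of purple tags over 13 sequences, and the pigment-cell linked families miR-21, miR-25, miR-101 and miR-148 held 16.7% and 17.9% over 13 sequences. The let-7 family had 406 purple tags, a little under the 419 of the 4 sequences, with each sequence counted once.

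How far these shares hold depends on what a listed tag is. The deposited normalized values equal the raw tags times 1 multiplier per library, between 7.03 and 7.05 in white and between 5.50 and 5.51 in purple, which allows the tags before rounding to be recovered. A value was called whole when a whole number, times a multiplier in that range, rounds to the deposited value. The values of cgr-miR-1260, hsa-miR-4532 and hsa-miR-4516 were whole in every library that lists them. Those of hsa-miR-1246 were whole in neither, at 8.38 tags in white and 301.6 in purple. Among other sequences with 1 entry and at most 12 nt shared with another listed sequence, 10 of 16 were whole in white and 12 of 16 in purple, for values of up to 50 tags. Among other sequences with several entries, 12 of 88 and 19 of 110 were whole. With 1 entry but over 12 nt shared, 3 of 22 in white and 7 of 23 in purple were whole. Values that are not whole were thus common without several entries too. The values of hsa-miR-1246, which has 3 entries, were compatible with whole tags divided by 3 in both libraries, and they would then stand for 25.2 and 905 tags. In purple this check could not fail. The tags compatible with the deposited value ran from 301.4 to 301.8, and a whole number divided by 3 always lies in so wide a range. In white the check is loose. Among other sequences with several entries and up to 50 tags, 37 of 88 in white and 65 of 110 in purple passed it too. How the authors shared tags among entries is not stated.

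If the tags of a sequence were divided among its entries, its sum over entries would be its level. On that count hsa-miR-1246 had 24 tags in white, at rank 64, and 906 tags in purple, at rank 9. The sequence cgr-miR-1260, with 1 entry, moved from rank 8 to 53 in white and from 7 to 38 in purple. The shares of all entry tags were then 0.114% and 2.79% for hsa-miR-1246 and 0.185% and 0.317% for cgr-miR-1260. The let-7 member hsa-let-7f-5p alone then had 1632 purple tags, above the sum of the 4 sequences. The order in which hsa-miR-1246 lay below cgr-miR-1260 in white and above it in purple was the same on both counts. On the summed count the white levels were closer, at 24 and 39 tags. No counting intervals were worked out for these sums, so the white order is not settled on that count.

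The comparison of the purple with the white library had been seen when the 4 sequences were selected, and they were partly chosen by their purple to white ratios and counts, so the ratios below are a description. On the share of listed tags, with 0.5 added to each count and an empty cell taken at 2 tags, the log2 ratio of purple to white of hsa-miR-1246 was 4.37 (interval 3.45 to 5.68), or 20.6-fold. The ratio was 0.60 (0.07 to 1.18), or 1.52-fold, for cgr-miR-1260. It was 1.26 (-0.41 to 3.88), or 2.40-fold, for hsa-miR-4532, and that interval includes 0. For hsa-miR-4516 it was -2.37 (-5.90 to -0.20), or 5.18-fold higher in white, a value set by taking the empty purple cell at 2 tags. In the order of all 170 ratios from purple to white, the 4 stood at positions 1, 5, 3 and 170.

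Of all 170 sequences, 3 were at least 2-fold higher in purple (1.76%), among them hsa-miR-1246 and hsa-miR-4532, and 16 were at least 2-fold higher in white (9.41%), among them hsa-miR-4516. When the counting interval also had to exclude 0, 1 sequence was left in purple (0.588%), hsa-miR-1246, and 3 were left in white (1.76%), with hsa-miR-4516 among them. The third sequence past 2-fold in purple was oha-miR-1a-3p, of a muscle miRNA family, with 12 purple tags and an empty white cell (1.53, with an interval that includes 0). Just inside the 2-fold limit in purple lay hsa-miR-4532 itself, and just outside hsa-miR-548o-3p, with 2 and 7 tags (0.80). On the white side the limit fell between hsa-miR-486-5p, a red-cell miRNA of vertebrates, with 23 and 19 tags (-1.06), and sko-miR-92b, with 7 and 6 (-0.99).

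**Figure D3:**
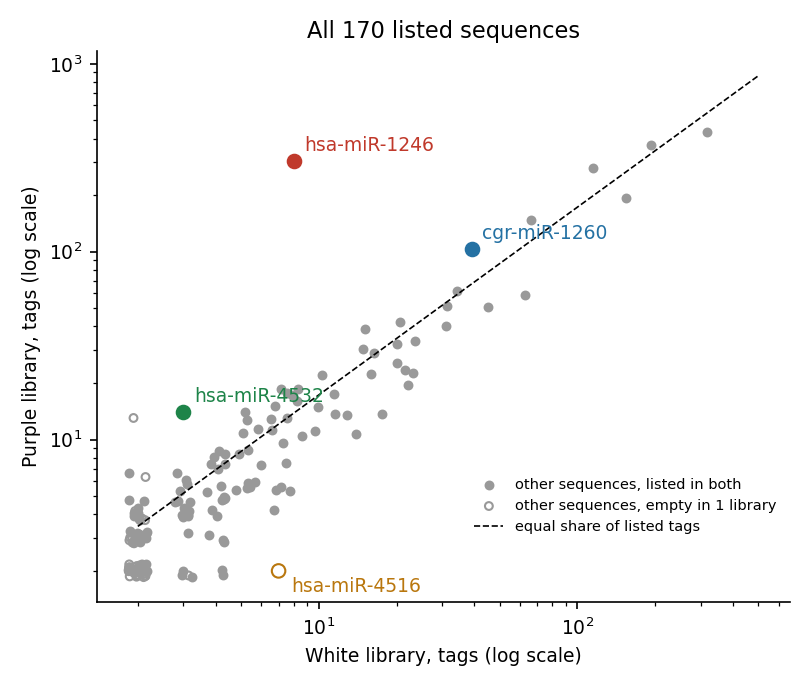
Tags in the white library (x axis) and the purple library (y axis), both on log axes, for the 170 listed sequences; open points have an empty cell drawn at 2 tags, grey points are spread slightly for visibility, and the dashed line marks an equal share of listed tags. The point of hsa-miR-1246 (8 and 302 tags) lies above all other sequences with a similar white count, and hsa-miR-4516 (7 tags and empty) lies at the lower edge.

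In the plot of purple against white tags hsa-miR-1246 stood alone. The nearest other sequence by the distance between log2 CPM values in the 2 libraries was hsa-let-7g-5p, a let-7 member with 35 and 65 tags, at 3.02 log2 units. The same sequence was also nearest to cgr-miR-1260, at 0.68, followed by chi-miR-21-5p with 66 and 137 tags at 0.86. Next to hsa-miR-4532 lay oha-miR-1a-3p at 0.53, bta-miR-30d with 5 and 13 tags at 0.66, and hsa-miR-150-5p, a white blood cell miRNA, with 5 and 12 tags at 0.69. Next to hsa-miR-4516 lay chi-miR-106b-3p and hsa-miR-652-3p, each with 4 and 2 tags, at 0.74, and hsa-miR-6842-3p with 7 and 4 tags, at 0.85. With 2 libraries, likeness of level is all that this distance measures.

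The scale of the libraries is uncertain, and the level of 1 sequence relative to another in the same library does not need it. Per tag of cgr-miR-1260 there were 0.205 tags of hsa-miR-1246 in white and 2.93 in purple, an odds ratio of 14.2 (exact conditional interval 6.28 to 36.3). The per-tag values count each sequence once and would be higher with tags summed over entries. The sums were 24 and 906 tags of hsa-miR-1246 against 39 and 103 of cgr-miR-1260. Against hsa-miR-4532 the odds ratio of hsa-miR-1246 was 7.97 (1.23 to 38.2). Against abundant miRNAs it was 30.3 with hsa-let-7i-5p (14.5 to 73.1) and with hsa-miR-451a (14.9 to 71.9), and 17.2 with hsa-miR-148a-3p (8.26 to 41.5). These come from the counts by which hsa-miR-1246 was chosen and are a description of the 2 libraries.

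For cgr-miR-1260 the odds ratio was 2.12 with hsa-miR-451a (1.41 to 3.24) and 2.12 with hsa-let-7i-5p (1.36 to 3.35). It was 1.27 with hsa-miR-151a-3p (0.833 to 1.97), 1.21 with hsa-miR-148a-3p (0.776 to 1.90) and 1.27 with chi-miR-21-5p (0.775 to 2.10), and these intervals include 1. All 5 of these odds ratios were above 1, and whether the interval excluded 1 depended on the sequence that cgr-miR-1260 was set against. Differences between these odds ratios were not tested. Against the 5 abundant miRNAs hsa-let-7i-5p, hsa-miR-451a, hsa-miR-151a-3p, hsa-miR-148a-3p and chi-miR-21-5p, the values of hsa-miR-4532 ran from 2.13 with hsa-miR-148a-3p (0.580 to 11.8) to 3.75 with hsa-miR-451a (1.04 to 20.5). For hsa-miR-4516, with its empty purple cell taken at 2 tags, they ran from 0.131 with hsa-miR-148a-3p (0.0131 to 0.703) to 0.231 with hsa-let-7i-5p (0.0231 to 1.24). The intervals with hsa-let-7i-5p and hsa-miR-451a include 1, and the other 3 lie below it. Between cgr-miR-1260 and hsa-miR-4532 no difference was detectable at this depth, with an odds ratio of cgr-miR-1260 of 0.568 (0.0993 to 2.19).

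The choice of scale moved every ratio by the same amount. With the scale of the deposited normalized values the ratios shifted upward by 0.43 on the log2 scale, and the median of all 170 sequences went from -0.42 to 0.01. The ratio of hsa-miR-1246 was then 4.80 (3.89 to 6.11), that of cgr-miR-1260 1.04 (0.50 to 1.62) and that of hsa-miR-4532 1.70 (0.03 to 4.31), while hsa-miR-4516 stood at -1.94 with an interval that includes 0 (-5.46 to 0.23). With that scale 6 of the 170 sequences (3.53%) were past 2-fold in purple and 4 of these (2.35% of the 170) also had an interval above 0. The 4 included hsa-miR-1246, cgr-miR-1260 and hsa-miR-4532. In white 4 sequences (2.35%) were past 2-fold, hsa-miR-4516 among them, and 0 of these (0%) had an interval below 0. Over 7 scales the log2 ratio of hsa-miR-1246 lay between 4.37 and 4.80, that of cgr-miR-1260 between 0.60 and 1.04, that of hsa-miR-4532 between 1.26 and 1.70 and that of hsa-miR-4516 between -2.37 and -1.94.

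**Figure D4:**
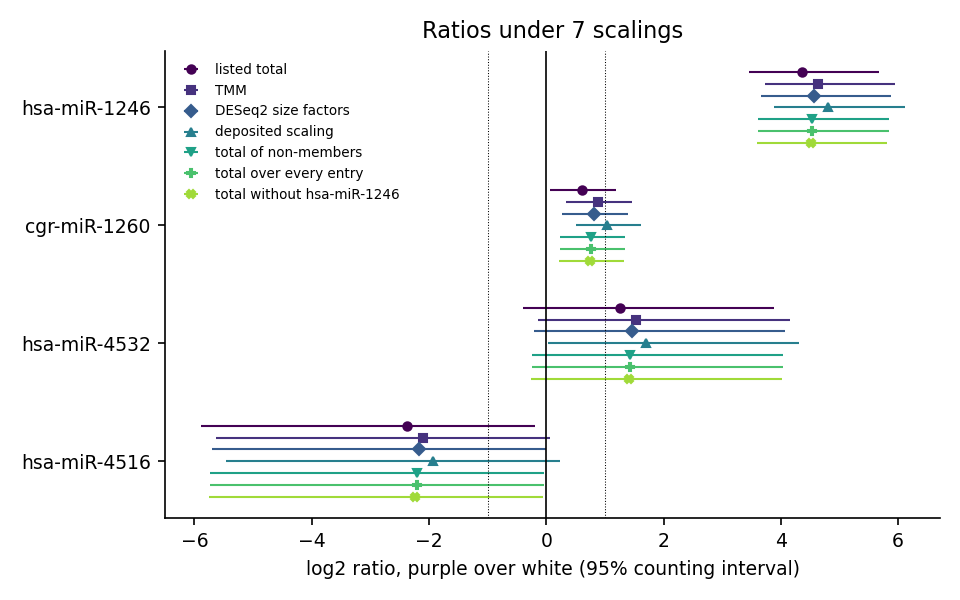
The log2 ratio of purple to white (x axis) for each of the 4 sequences under 7 ways of scaling the libraries, with 95% counting intervals as bars; dotted lines mark 2-fold. The bars of hsa-miR-1246 lie above 2-fold under all 7, those of cgr-miR-1260 lie above 0, and those of hsa-miR-4532 and hsa-miR-4516 reach or cross 0 under some.

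The single sequence hsa-miR-1246 also bore on the scale itself. The purple library held 1321 more listed tags than the white, and hsa-miR-1246 made up 294 of them, or 22.3%. The ratio of the listed totals, purple over white, was 1.73, and it was 1.54 with the 4 sequences left out. If tags are summed over entries, hsa-miR-1246 made up 7.69% of the 11471 additional purple tags.

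For other sequences that were short, had no close relative or were rich in G and C, no higher share in purple was detectable. These classes were chosen after the values had been seen and are given as counts. The other 3 sequences of 17 to 19 nt together had 12 white and 17 purple tags, a log2 ratio of -0.30 (-1.44 to 0.91). Most of these tags, 10 and 15, were chi-miR-451-5p, a 19-nt form of miR-451. The rest were ssc-let-7i, a let-7 form (empty and 2), and hsa-miR-1268a (2 and empty). This class therefore says little about short sequences without a close relative. The other 52 sequences with at most 12 nt in common with any other had 128 and 194 tags (-0.19, interval -0.52 to 0.15). The other 14 sequences with at least 60% G and C had 67 and 66 tags (-0.81, interval -1.32 to -0.30), a lower share in purple on this scale. With the deposited scale the 3 log2 ratios were 0.13, 0.24 and -0.38, the first 2 with their sign changed, and all 3 intervals include 0. The median of the 170 single ratios on that scale was 0.01, which is not a ratio of summed tags. Summed as the classes are, the 166 sequences other than the 4 stood at 0.272 (0.185 to 0.359) on that scale. On the listed total they stood at -0.161 (-0.248 to -0.073). The interval of the class rich in G and C on the deposited scale, -0.889 to 0.136, lies below that of the 166.

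A list of 40 such families, covering stretches of transfer, ribosomal, small nuclear, small nucleolar, vault and mitochondrial RNA, was drawn up with the 4 families in it. It is not complete: miR-1839, reported as a stretch of a small nucleolar RNA, was left off it, and cfa-miR-1839 had 2 purple tags and an empty white cell. Of the 40, only these 4 had a listed entry, which was known when the list was drawn up. The 36 without one include miR-1274, miR-720 and miR-1280, reported as transfer RNA stretches, and miR-1290. Their absence says only that no such entry was listed at 2 tags or more.

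The summed share of a list of vertebrate red-cell miRNAs was lower in the purple library. All 8 families of a red-cell list chosen with the values known were present (miR-16, miR-25, miR-92, miR-144, miR-185, miR-363, miR-451, miR-486). Their summed share was 32.0% in white (29.9 to 34.2) from 583 tags, and 21.7% in purple (20.3 to 23.2) from 681 tags. The sum was mostly the miR-451 family, with 393 white and 482 purple tags. Within the list hsa-miR-185-5p went the other way, with 7 and 15 tags (0.26, interval -1.07 to 1.85). The lower share is thus one of the summed tags and not of each family in the list. On the deposited scale the log2 ratio of the summed list was -0.13, with an interval that includes 0 (-0.29 to 0.03). All 166 sequences other than the 4, the red-cell list among them, together stood at 0.272 on that scale (0.185 to 0.359). The summed list thus lay below the level of the other sequences on this scale too. The part of the red-cell list in the difference of hsa-miR-1246 was not tested. Set against hsa-miR-151a-3p, which is not on that list, the odds ratio of hsa-miR-1246 was 18.1 (8.82 to 43.3). This value comes from the counts by which hsa-miR-1246 was chosen and is a description, not a test of that part.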

How the data were processed

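Small RNA from mantle exosomes was sequenced in 1 white and 1 purple library. Per the submitters' processing notes, cutadapt 1.9.2 and Novoalign 3.02.12 were used. Settings, catalogue and build are not stated in the sources used. The authors deposited raw tag counts (estimated counts, rounded to whole numbers) and normalized tag counts, whose unit is not stated and which were treated as a score. If the deposited normalized score is CPM, the totals behind it are about 142094 and 181690 tags. Each column, headed by a number, was assigned to the library with that number at the end of its title.

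The 1404 entries were collapsed to 170 distinct sequences, since entries of 1 sequence carry equal values. Ratios used the listed total as scale, 0.5 added tags and exact conditional binomial (Clopper-Pearson) intervals, and shares used exact binomial intervals. The ratio intervals, but not those of shares or odds ratios, were tried on simulated counts with counting error only. Pairs with fewer than 10 tags in sum were left out of that trial. It held no divided tags and no PCR copies. With 1 library per group, no count test was run. Other scales came from edgeR 4.0.16 (TMM), DESeq2 1.42.0 (size factors), the deposited values and other totals; scipy 1.17.1 gave odds ratios.

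The 4 families, the lists and the classes were chosen with earlier results of these data known. Named besides the 4 are, by rule, their 3 nearest sequences in level, sequences at the 2-fold limit, and leading sequences of 5 abundant families; others were chosen after their values were seen.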

Additional observations from a re-analysis of the deposited data

How the results depend on the processing

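The 44 log2 ratios of the 4 sequences under 11 alternatives each kept their sign and stayed within the counting interval of the reported value. The alternative totals without hsa-miR-1246 and with tags summed over entries were chosen after seeing the data. With 5 added tags hsa-miR-1246 stood at 3.77 and hsa-miR-4532 at 0.46, and with empty cells as 0 hsa-miR-4516 stood at -4.69. Shares changed with the total. With every entry counted they were, in white and purple, 0.114% and 2.79% for hsa-miR-1246, 0.185% and 0.317% for cgr-miR-1260, 0.0142% and 0.0430% for hsa-miR-4532, 0.0332% in white for hsa-miR-4516, and 0.347% and 3.14% for all 4 together. With the total behind the normalized values, if these are CPM, they were 0.00563% and 0.166%, 0.0274% and 0.0567%, 0.00211% and 0.00771%, 0.00493%, and 0.0401% and 0.231%. Over the total of the other sequences hsa-miR-1246 took 11.1% in purple. Of 170 sequences, 3 were past 2-fold in purple, which came to 6 with the deposited scale, 6 at 1.5-fold, 1 at 4-fold and 36 with empty cells as 0. With an interval excluding 0 the 1 in purple came to 4 with the deposited scale, 2 at 1.5-fold and 2 with empty cells as 0. The 16 past 2-fold in white came to 9 with TMM, 4 with the deposited scale, 69 at 1.5-fold, 1 at 4-fold and 25 with empty cells as 0. When at least 10 tags were required, only 69 sequences were left. Of these 69, 6 were past 2-fold in white, and hsa-miR-4516 was not among them. The 3 with an interval excluding 0 in white numbered 0 with DESeq2 size factors, 0 with the deposited scale, 0 with TMM, 5 at 1.5-fold and 1 at 4-fold. Under these 3 scales hsa-miR-4516 lost its call because the interval, with its empty purple cell at 2 tags, reached 0. With empty cells as 0, on the listed total, the upper end of its interval was -1.31. That setting was not combined with the other scales. The cause of the other changes was not tested. No paired analysis was possible because only 1 white and 1 purple library exist here, which also leaves no replicate to drop. Depth limits hsa-miR-4532 and hsa-miR-4516, with at most 14 tags in a library.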

Other observations

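Besides hsa-miR-4532 and hsa-miR-4516, 16 sequences were deposited under human names alone, a class chosen after the values were seen. Together they held 45 white tags, or 2.47% (interval 1.81 to 3.29), and 60 purple tags, or 1.91% (1.46 to 2.45). Among them hsa-miR-629-5p had 15 white and 11 purple tags, hsa-miR-6842-3p 7 and 4, and hsa-miR-4433b-3p 6 and 11. The 18-nt hsa-miR-1268a, the listed sequence nearest to hsa-miR-4532 in G and C content at 83.3%, had 2 white tags and was empty in purple. The other sequence ending in CCA, hsa-miR-223-3p, a miRNA of vertebrate myeloid cells, had 3 and 5 tags and was deposited for 5 species.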
